A study of Macaca mulatta with 9 samples.

Results

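The rhesus macaque embryonic stem (ES) cell line ORMES6 was profiled as 3 biological replicates, lettered A, B and C, and this account sets replicate C against replicates A and B. These are 3 of the 9 arrays of the series, each hybridised with total RNA on the Affymetrix Rhesus macaque array. The other arrays held 1 sample each of the ES lines ORMES7, ORMES9, ORMES10 and ORMES13, of embryoid bodies (EBs, pooled clumps of ES cells that differentiated on their own over 30 days) and of adult skin fibroblasts. All ES lines were kept on mouse embryonic fibroblasts that could no longer divide as feeders, in foetal bovine serum and FGF2, with manual passage, and RNA came from well-formed colonies lifted by hand. The labels do not say how many passages or days lay between the ORMES6 cultures. The replicate was chosen by its values on these arrays: it had been seen to stand apart, so every difference between C and A or B below is a description without a test.

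ES cells renew themselves while holding back differentiation, through a circuit around the transcription factors POU5F1, SOX2 and NANOG. Cultures of 1 line can drift in signalling, metabolism and the share of cells that begin to differentiate, since colonies depend on feeder cells, on serum and on the time since passage. Replicate cultures therefore carry both the identity of the line and the state of the dish on the day of harvest.

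All 3 replicates had the profile of ES cells. POU5F1 had a signal of 7588 in C, against 5271 in A and 5459 in B, and 148 in the EBs. SOX2 had 6102 in C, against 4153 in A and 4278 in B, and NANOG had 5249 in C, against 3462 in A and 3557 in B. All 3 factors were thus high in every replicate and 1.41 to 1.49 times higher in C on the scale used below. The summed signal of 8 defining ES markers was 30786 in C, against 23113 in A and 24007 in B, with 22254 to 29541 in the other lines. Among the 8 were also members lower in C. PODXL, a surface sialomucin, had 771 in C, against 847 in A and 953 in B, and DNMT3B, the DNA methyltransferase of early embryos, had 4833 in C, against 4944 in A and 5161 in B. TDGF1, also among the 8, was low on all arrays with its probe set, at 25.7 in C against 24.8 in A and 40.6 in B.

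Signals were compared as log2(signal + 16) over 52763 probe sets, and a probe set was called shifted where C lay at least 2-fold from both A and B in the same direction. By this rule 2929 probe sets were shifted (5.55%), of which 1556 were higher in C (2.95%) and 1373 were lower in C (2.6%). The split moved with the scaling, to 1221 higher and 1660 lower after quantile normalization and to 977 higher and 1889 lower after centring each array on its median. At least 4-fold from both lay 55 probe sets that were higher and 63 that were lower in C, and at least 8-fold 6 and 8. At the level of named genes, 1072 of 19652 were shifted (5.45%), with 720 higher (3.66%) and 352 lower (1.79%). Just inside the threshold lay NR4A1, whose smaller difference was 1 on the log2 scale, and just outside lay SBLF, at 0.9987. The authors' deposited table of log ratios over the EB array put C on the same side of A and B for 99.1% of the probe sets higher in C and 99.5% of those lower in C. These ratios come from the same arrays, and at the rule's own threshold of 2-fold the shares were 69.7% and 87.2%.

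The step between C and its sister cultures was somewhat below the steps between the other lines and the same pair. With ORMES7 in the place of C, 3246 probe sets met the same rule against A and B (6.15%), and ORMES9 gave 4682 (8.87%), ORMES10 4626 (8.77%) and ORMES13 5341 (10.1%). In contrast, A against B and C gave 697, and B against A and C gave 620. Trios made of the other 4 lines alone, each with 1 line against 2 others, gave 977 to 2339 over 12 trios, with a median of 1507.5. The trio counts are not like for like with the count for C, because 2-fold from both arrays is met more easily against a close pair such as A and B than against 2 different lines. Pair by pair, 11.2% of probe sets differed over 2-fold between C and A and 10.6% between C and B, against 8.09% to 11.7% between 2 of the other lines.

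**Figure D1:**
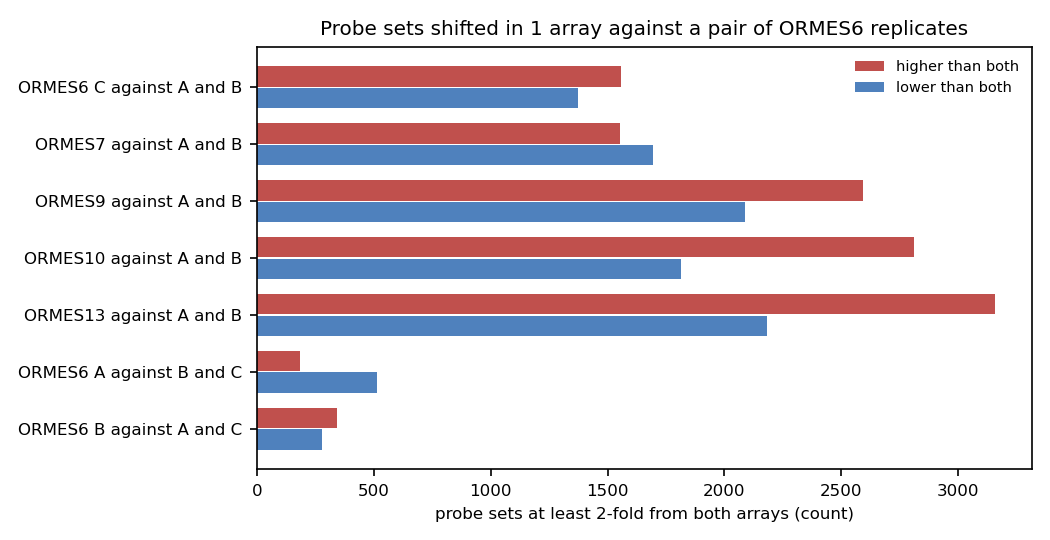
Number of probe sets (horizontal axis) at least 2-fold higher or lower in 1 array than in both arrays of an ORMES6 pair. C against A and B gave 1556 and 1373, near ORMES7 at 1552 and 1694, while A and B in the place of C gave 697 and 620 in all.

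The median absolute log2 difference was 0.39 between C and A and 0.38 between C and B, while A and B differed by 0.22. C was nearer to each of the other lines than to A, at 0.32 from ORMES7, 0.37 from ORMES9, 0.36 from ORMES10 and 0.36 from ORMES13. A and B lay 0.37 to 0.43 from those lines. Pairs of the other 4 lines differed by 0.32 to 0.37. A and B thus formed a close pair, and by this measure C was nearer to each other line than to A or B. By Pearson's r, across probe sets of 2 arrays, the order was another. The r of C was 0.954 with A and 0.954 with B, against 0.962 with ORMES7, 0.949 with ORMES9, 0.951 with ORMES10 and 0.944 with ORMES13, and 0.977 between A and B. A and B together lay at least 2-fold beyond all 5 other ES arrays for 469 probe sets, of which 287 were above and 182 below. C lay 2-fold beyond all 6 other ES arrays for 127. By that measure for single arrays ORMES7 had 196, ORMES9 308, ORMES10 148 and ORMES13 469. A had 108 and B 107, each with the other of the close pair among the 6.

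**Figure D2:**
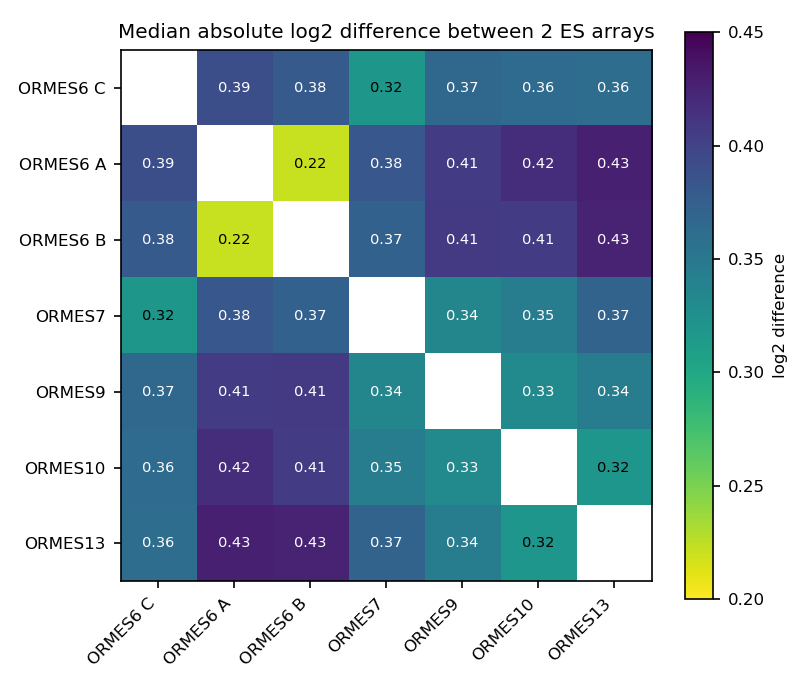
Median absolute difference in log2(signal + 16) over 52763 probe sets for each pair of the 7 ES arrays. The cell for A and B is the lowest, at 0.22, and C is at 0.32 from ORMES7 against 0.39 from A and 0.38 from B.

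Shifts were not a matter of dim probe sets alone. By the detection values given for ORMES6, described below, 50.6% of probe sets higher in C were absent, and 40.5% of those lower. The share over all probe sets was 58.9%. When probe sets were ranked by their mean level in the other 4 lines, 2.28% of the lowest quartile were shifted and 8.16% of the highest quartile. In the highest quartile the median absolute difference of C from A and B was 0.40, against 0.12 between A and B and 0.32 between 2 of the other lines. Genes that shifted were also somewhat more variable between lines, a measure that the rule did not use. In that quartile the SD over the 4 other lines had a median of 0.34 for probe sets higher in C and 0.37 for those lower in C, against 0.30 for all.

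Some array measures moved together with the split. The geometric mean of 9 hybridisation spike probe sets was 1157 in C, against 594 in A and 571 in B, with 878 to 1148 in the other lines and 506 in the EBs. The ratio of 3′ to 5′ signal of GAPDH was 4.23 in C, against 2.55 in A and 2.93 in B, with 3.79 to 5.20 in the other lines and 1.61 in the EBs. In both measures C lay with the other lines, and A and B lay on the side of the EBs. For actin the ratio was 59.5 in C, against 22.7 in A and 52.1 in B, with 49.3 to 66.2 in the other lines and 7.15 in the EBs. It thus set A apart but not B. The fibroblasts had 874 for the spikes, 2.74 for GAPDH and 13.1 for actin. The part of these measures in the differences was not tested. Probe sets built on macaque expressed sequence tags were lower in C in 11.02% of 2060 cases and higher in 2.33%, whereas those built on regions matching human transcripts were lower in 2.29% and higher in 3.00% of 43940.

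The place of both sides among the other 4 lines, which the rule did not use, was described next. Of the 1556 probe sets higher in C, C lay inside the range of the other 4 lines and the mean of A and B outside it for 542, or 34.8%, and the reverse held for 363, or 23.3%. Of the 1373 lower in C, 576, or 41.95%, had C inside and A and B outside, and 229, or 16.7%, the reverse. Over all probe sets the shares were 20.8% and 19.2%. Among shifted probe sets with only 1 side inside the range of the other lines, C was that side more often than A and B.

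The genes with the largest differences upward had A and B below all 4 other lines, while C was not always inside their range. PBX2, a homeodomain partner of HOX proteins, had a signal of 943 in C, against 49.2 in A and 54.0 in B, a 14.2-fold difference. The other lines ran between 607 and 1051, so C lay inside their range and A and B far below it. AKT2, a kinase of insulin and growth factor signalling, had 1996 in C, against 132 in A and 153 in B, a 12.7-fold difference. Every other array of the series, EBs and fibroblasts included, had 1037 or more. AP1S1, a subunit of the clathrin adaptor of the Golgi, had 1264 in C, against 153 in A and 138 in B. NPM3, a histone chaperone of the nucleoplasmin family, had 4940 in C, against 637 in A and 792 in B, and LMNB1, which encodes lamin B1 of the nuclear envelope, had 1952 in C, against 335 in A and 417 in B. NPM3 and LMNB1 were also higher in C than in any other line, where the highest values were 3209 and 1782.

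The remaining genes among the 15 with the largest difference upward also had A and B below all of the other lines. They include ADD2, a subunit of the adducin membrane skeleton, at 1496 in C against 152 in A and 210 in B, and TAF15, an RNA-binding protein tied to the general transcription machinery, at 1568 in C against 208 in A and 165 in B. Another of the 5 TAF15 probe sets was shifted the other way, at 6.56 on the log2 scale in C against 8.28 in A and 7.85 in B. MRPL12, a protein of the mitochondrial ribosome, had 2469 in C, against 522 in A and 439 in B. APH-1A, a subunit of gamma-secretase, had 891 in C, against 160 in A and 164 in B. GEFT had 324 in C, against 39.3 in A and 15.3 in B, and PPP2R2C, a regulatory subunit of protein phosphatase 2A, had 204 in C, against 29.7 in A and 22.8 in B. ANP32C, C20orf127, MFHAS1 and MIDN differed 5.06-fold to 7.86-fold. For all 15 genes both A and B lay below each of the other 4 lines, and C lay inside their range for 6, above it for 7 and below it for 2. The genes were picked for values far lower in A and B than in C, so this place is in part set by the choice. For 14 of the 15 the EB level was nearer to A and B than to C, as it was for 9 of the 15 genes with the largest difference downward. The share was 61.1% for all probe sets higher in C, 64.2% for those lower in C and 55.5% for all probe sets.

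Among genes at a signal of 200 or more, the largest differences downward were smaller than those upward, whereas over all probe sets the largest difference was downward. GNG10, a gamma subunit of heterotrimeric G proteins, had 440 in C, against 3054 in A and 3070 in B. PSMC1, an ATPase of the proteasome cap, had 888 in C, against 5493 in A and 5387 in B, a 6.04-fold difference. The other lines spanned 297 to 3095 for GNG10, which covers both sides, and 677 to 1810 for PSMC1, which covers only C. EDN1, which encodes the peptide endothelin-1, had 108 in C, against 547 in A and 547 in B, with 123 to 175 in the other lines. SPTSSA, a small subunit of serine palmitoyltransferase, had 375 in C, against 1906 in A and 1906 in B, with 194 to 476 in the other lines. For EDN1 and SPTSSA, C lay with or just below the other lines and A and B well above them, while the EBs had 430 and 1270.

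PHLDA1, a pleckstrin homology protein induced by growth factor signalling, had 235 in C, against 1301 in A and 1449 in B. IDI1, an enzyme of isoprenoid and cholesterol synthesis, had 503 in C, against 2101 in A and 2079 in B, and SAS10, a factor of ribosomal RNA processing, had 165 in C, against 732 in A and 704 in B. SRSF5, a splicing factor of the serine and arginine rich family, had 1090 in C, against 4091 in A and 4012 in B. WDR37, ZNF273, FAM13C1, FLJ10652, KIAA0738 and MGC14376 differed 3.48-fold to 5.50-fold, and BMPR1A, given with its pathway below, completes the 15. Of these 15 genes, 13 had both A and B above all 4 other lines, while GNG10 and ZNF273 were the exceptions. C lay inside the range of those lines for 8 and below it for 7. Here too the choice of genes by their difference sets this place in part.

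**Figure D3:**
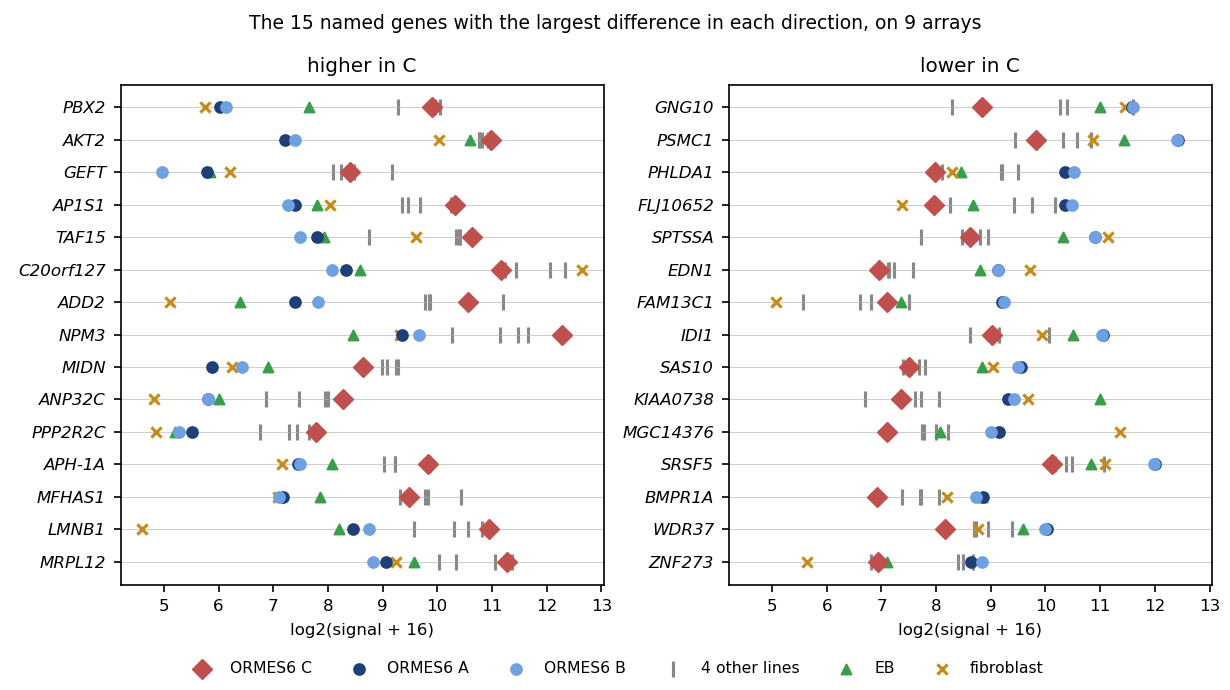
Level as log2(signal + 16) on each of the 9 arrays for the 15 genes with the largest difference upward (left) and downward (right) in C. On the left C sits with the grey marks of the other 4 lines or near them and A and B sit to the left of all 4, and on the right A and B sit beyond all 4 lines for 13 genes.

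Different probe sets of a gene often did not move together. Of 617 shifted genes with more than 1 probe set, 90 had another probe set shifted the same way, and 41 genes had shifted probe sets in opposite directions. The genes of this paragraph other than AKT2, PBX2, HNRNPA1, SRSF5 and EEF1A1 were singled out after their values were seen. The largest difference of the array was in MALAT1, a long noncoding RNA of the nucleus, where 1 probe set read 6.99 on the log2 scale in C, against 12.13 in A and 11.96 in B. The other lines read 6.63 to 8.22 there. None of the other 6 MALAT1 probe sets was shifted downward and 1 was shifted upward, and the one that stood for the gene read 9.38 in C, against 9.34 in A and 9.34 in B. HSPD1, the mitochondrial chaperonin, had a probe set at 8.19 in C, against 11.05 in A and 10.96 in B, and a second at 9.96 in C, against 11.87 in A and 11.75 in B. The one that stood for HSPD1 read 13.21 in C, against 13.33 in A and 13.29 in B. EEF1A1, the elongation factor of translation, had 1 probe set with 16499 in C, against 4041 in A and 3907 in B, while another read 13.48 on the log2 scale in C, against 13.36 in A and 13.31 in B. AKT2 was shifted by 1 of its 6 probe sets and PBX2 by 2 of 3.

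For HNRNPA1 and SRSF5 several probe sets differed the same way. HNRNPA1, a nuclear RNA-binding protein of splicing, was lower in C on 4 of its 9 probe sets, with log2 differences of -3.25, -3.09, -1.68 and -1.20. SRSF5 was lower on 2 of 3, with -2.65 and -1.88. KIAA1181, with the largest difference upward of any probe set, read 9.64 in C, against 5.47 in A and 5.69 in B, and a second of its 5 probe sets read 9.44 in C, against 7.88 in A and 7.55 in B. HNRNPA1, EEF1A1 and ribosomal protein genes have many near-identical copies in primate genomes, so their probe sets can take up signal from more than 1 locus.

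**Figure D4:**
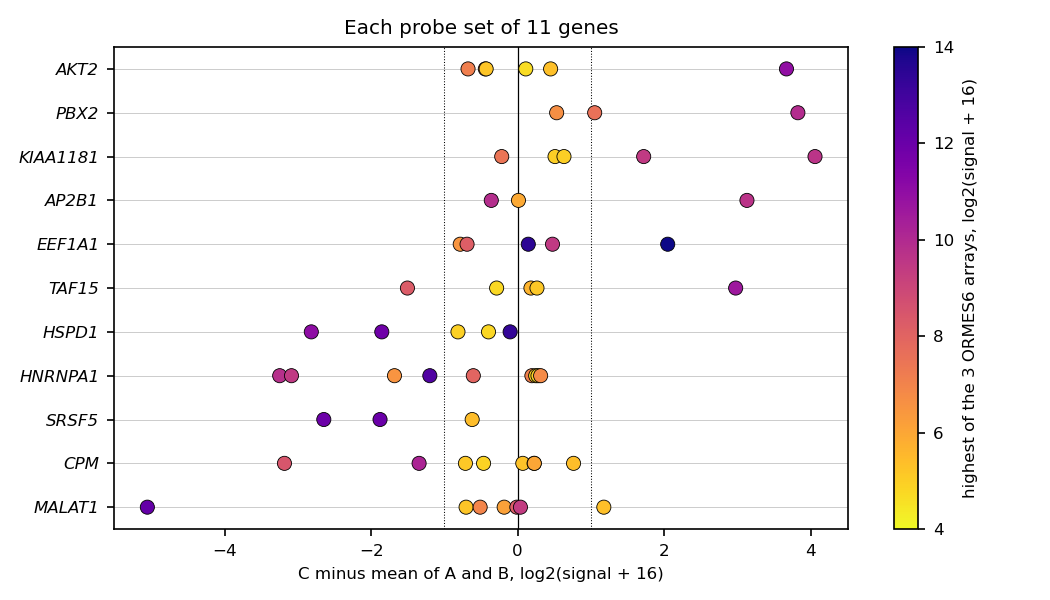
Difference of C from the mean of A and B in log2(signal + 16) for every probe set of 11 genes, with the colour giving the highest level on the 3 ORMES6 arrays and dotted lines at 2-fold. For MALAT1 a single probe set lies at -5.06 and 5 of the other 6 lie within 2-fold, while 4 of the 9 for HNRNPA1 lie to the left of the line.

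The gene groups below were compared by counts and by the median difference over their members, beside the same for all 19652 genes, whose median difference was 0.13 and of which 50.5% were higher in C than in both A and B. Counts of shifted members are to be read against the 3.66% of all genes that were shifted upward and the 1.79% shifted downward. Median centring took that median to 0.01. Ribosomal protein genes had the highest group median, but after quantile normalization their median was below those of oxidative phosphorylation, mitochondrially encoded genes, glycolysis, metallothionein and redox, interferon, epithelial and histone genes. Of 63 cytoplasmic ribosomal protein genes, 54 were higher in C than in both A and B (85.7%) and 6 were shifted, all of them higher, with a median difference of 0.57. After median centring 3 were higher and 1 lower, and after quantile normalization 4 and 1. FAU, which encodes ribosomal protein S30 as a fusion, had 4479 in C, against 1576 in A and 1479 in B. RPS29 had 7251 in C, against 2849 in A and 2504 in B, and RPL37 had 4705 in C, against 1411 in A and 2172 in B. The median stayed above 0 at 0.45 after median centring and at 0.15 after quantile normalization. Set against the mean of the other 4 lines, the group median was 0.29 in C and -0.26 in the mean of A and B. RPS15 was a further shifted member, at 1999 in C against 905 in A and 809 in B.

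Of 35 genes of oxidative phosphorylation, 28 were higher in C than in both A and B (80.0%), 4 were shifted upward and none downward (3 and none under both other scalings), with a median difference of 0.44. COX7A2, a subunit of cytochrome c oxidase, had 10361 in C, against 4147 in A and 4382 in B. COX8A, another subunit, had 7825 in C, against 2836 in A and 2964 in B. COX6A1 had 7131 in C, against 2795 in A and 3052 in B, and SDHC, a membrane anchor of succinate dehydrogenase, had 892 in C, against 404 in A and 342 in B. For COX7A2, COX8A and COX6A1 the value in C was also above each of the other lines. Of the 6 mitochondrially encoded genes with a probe set 5 were higher in C than in both A and B and none was shifted, with ND5 at 5794 in C against 2840 in A and 3376 in B.

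Genes of glycolysis and the response to low oxygen had 6 of 37 members shifted upward and none downward (6 and 1 after median centring), with a median difference of 0.47 that was 0.34 after median centring and 0.28 after quantile normalization. PFKFB4, a regulator of glycolytic flux, had 593 in C, against 188 in A and 182 in B. PFKP, the platelet form of phosphofructokinase, had 941 in C, against 337 in A and 331 in B, and ENO2, an enolase, had 197 in C, against 54.5 in A and 61.1 in B. DDIT4, an inhibitor of mTOR signalling induced by stress, had 741 in C, against 203 in A and 291 in B. In the other lines these 4 genes ran from below C to above it, for instance 307 to 981 for PFKFB4. C was thus inside the range of the other lines for all 4. PFKFB3 went the other way within the group, with a difference of -0.93 that did not meet the rule.

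Metallothionein and redox genes had 3 of 21 members shifted upward and none downward, which became 2 and 1 after median centring. MT1X, a metal-binding protein, had 303 in C, against 64.3 in A and 58.5 in B, and GPX1, a glutathione peroxidase, had 3110 in C, against 1453 in A and 1450 in B. The metallothionein genes are close copies of each other, so MT1X and MT1H may share signal. Of the heat shock genes 2 of 23 were shifted, both upward, and after median centring 0 of 23 with a group median of 0.04. HSPB1, a small heat shock protein, had 1089 in C, against 250 in A and 527 in B, a spread between A and B of over 1 on the log2 scale. HSPA1B had 414 in C, against 179 in A and 163 in B. Interferon and antigen presentation genes had 2 of 41 shifted upward, and 1 under both other scalings, with ISG15 at 325 in C against 124 in A and 131 in B and TAP1, a peptide transporter of antigen presentation, at 133 in C against 53.8 in A and 47.9 in B. The ISG15 value in C exceeded those of all other lines, which reached 202.

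Immediate early genes, which answer growth factors and handling within minutes, stood lowest of the 34 groups. Of 35, 24 were lower in C than in both A and B (68.6%, against 31.1% of all genes) and the median difference was -0.28, and -0.40 and -0.35 under the other scalings. Shifted downward were 3 and upward 1, while after median centring there were 4 and 0 and after quantile normalization 3 and 0. EGR3, a zinc finger factor, had 36.4 in C, against 176 in A and 123 in B. CTGF, a matricellular protein and target of YAP, had 3793 in C, against 7684 in A and 8655 in B. NR4A1, an orphan nuclear receptor, went the other way at 239 in C, against 93.9 in A and 112 in B. JUN was called lower by the probe set that stood for it, at 40.9 in C against 119 in A and 151 in B, but of its 3 probe sets 2 were lower and 1 higher. FOS, named outside the rule for naming genes because it heads this response, had 100.3 in C, against 126 in A and 118 in B.

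The NODAL, TGFB and BMP pathway had 5 of 42 members shifted downward and 2 upward, with a median difference of -0.14. After median centring 6 were lower and 0 higher, and after quantile normalization 4 and 1. BMPR1A, a receptor of BMP ligands, had 104 in C, against 445 in A and 408 in B, and ACVR1, a related receptor, had 321 in C, against 842 in A and 879 in B. The ligand BMP2 had 123 in C, against 336 in A and 387 in B, and BMP4 had 314 in C, against 661 in A and 645 in B. CER1, a secreted antagonist of NODAL and BMP, had 148 in C, against 519 in A and 487 in B. BMPR1A, ACVR1 and BMP2 were lower in C than in each of the other lines, and the BMP2 values there reached 1978. The members higher in C were the ligand subunit INHBE and the receptor ACVR2B, with differences of 1.22 and 1.30, both named after their values were seen. In the group of mesoderm and heart genes, which shares CER1 and BMP4, 3 of 32 were shifted downward and 1 upward (5 and 0 after median centring, 3 and 0 after quantile normalization), with GATA6, a factor of primitive endoderm and heart, at 1544 in C against 3871 in A and 3799 in B.

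WNT genes had 4 of 37 shifted, all upward, but 3 upward and 1 downward after median centring, with a group median of -0.03. PORCN, the acyltransferase that lets WNT ligands be secreted, had 143 in C, against 22 in A and 24.5 in B, and DKK3, a secreted protein related to WNT antagonists, had 396 in C, against 168 in A and 164 in B. WNT3A and NKD1 stayed below a signal of 60 on these 3 arrays. DKK3 turned to -0.02 when all of its probe sets were averaged. FGF4, a growth factor of the inner cell mass, was the only shifted gene of 26 in the FGF and ERK group, at 117 in C against 23.6 in A and 24.9 in B.

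On the scale as deposited, HOX genes had the largest share shifted of any group, 9 of 38 or 23.7%, with 5 higher and 4 lower. Their median difference was -0.06. After median centring 3 were higher and 4 lower. The share was then no longer the largest, since glycolysis had 6 higher and 1 lower of 37. HOXD10 had 464 in C, against 1451 in A and 1523 in B, where the other lines had 52.1 to 296, and both of its probe sets were lower in C. HOXB2 had 71.8 in C, against 11.2 in A and 13.2 in B, and HOXB5 had 45.5 in C, against 11.5 in A and 4.9 in B. The shifted HOX genes higher in C were all below a signal of 80 on these 3 arrays.

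Pluripotency genes beyond the core factors split. NR5A2, a nuclear receptor that binds the POU5F1 promoter, had 406 in C, against 963 in A and 935 in B, with 91.7 to 219 in the other lines. It was thus higher in all 3 ORMES6 cultures than in those lines, and highest in A and B. KLF5, a zinc finger factor, had 99 in C, against 240 in A and 280 in B. TFCP2L1, a factor of the naive state in mouse, had 74.8 in C, against 18.6 in A and 1.9 in B. In all 3 of 36 were shifted downward and 1 upward, and the median difference was 0.23. On the list of epithelial and surface genes 3 of 33 were shifted upward and 1 downward, against 1 and 1 after median centring and 2 and 2 after quantile normalization. CDH1, the epithelial cadherin, had 189 in C, against 61.9 in A and 65 in B, and CD9 had 1495 in C, against 664 in A and 574 in B. PROM1, the surface protein prominin, was lower at 1060 in C, against 2234 in A and 2558 in B. ORMES7 lay near A and B for CDH1, at 66.3, whereas the other 3 lines had 656 to 926.

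Markers of other cell types were checked in the same way. The summed signal of 8 fibroblast or feeder markers was 5980 in C, against 3259 in A and 3251 in B, with 4910 to 13295 in the other lines, 28699 in the EBs and 36664 in the fibroblasts. THY1, which ES cells also express, made up most of it, at 3819 in C against 1866 in A and 1807 in B. Among the other members some were lower and some higher in C. PRRX1, a mesenchymal homeobox factor, had 14.5 in C, against 48 in A and 51.3 in B, and LOX, a collagen crosslinking enzyme, had 26.9 in C, against 62.2 in A and 58.8 in B. COL3A1 had 110 in C, against 126 in A and 105 in B, and FAP was at most 15.4 on these 3 arrays. Higher in C besides THY1 were COL1A1, COL1A2 and PDGFRB. COL1A1 had 634 in C, against 273 in A and 294 in B. COL1A2 had 1206 in C, against 794 in A and 800 in B, and PDGFRB had 160 in C, against 86.6 in A and 119 in B. Over 50 fibroblast and matrix genes 3 were shifted upward and 5 downward, or 1 and 6 after median centring and 2 and 5 after quantile normalization. IGFBP7, a secreted growth factor binding protein, was higher at 102 in C against 20.9 in A and 17.8 in B. Among those lower in C were CDH11, a mesenchymal cadherin, at 358 against 1017 in A and 1129 in B, and THBS1, a matrix glycoprotein, at 329 against 832 in A and 892 in B. In whole cultures, fewer cells of a type and less RNA per cell cannot be told apart.

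Of 34 neural genes 2 were shifted downward and 1 upward, or 4 and 1 after median centring and 3 and 1 after quantile normalization. TUBB3, a neuronal tubulin, had 208 in C, against 745 in A and 689 in B, and 1442 in the EBs. NEFM, a neurofilament, had 400 in C, against 1156 in A and 1078 in B, but averaging its probe sets gave 0.02. ZIC1, a neural plate factor, was higher at 1155 in C, against 382 in A and 467 in B, with 49.1 to 253 in the other lines. Of 26 trophoblast genes 2 were shifted, both upward, and of 34 endoderm and liver genes 1 in each direction, of 29 blood and endothelium genes 1 in each direction, of 17 germ cell genes 1 upward, and of 20 contractile genes 1 upward. After median centring no endoderm, blood, germ cell or contractile gene was shifted upward. The shifted trophoblast and germ cell genes had signals below 80 on these 3 arrays.

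Cell division was the steadiest large group, with 1 of 58 genes shifted and a median difference of 0.15. That gene was CCND1, cyclin D1, at 433 in C against 1016 in A and 1081 in B. Of 30 genes of the p53 response and CDK inhibitors 1 was shifted each way, with GADD45A at 577 in C against 1379 in A and 1393 in B. Chromatin genes had 1 of 36 shifted, BMI1 of the Polycomb complex, at 738 in C against 1737 in A and 1706 in B. No gene of 22 in ribosome biogenesis, of 10 histone genes or of 29 inflammation genes was shifted, although 1 inflammation gene was lower under both other scalings. In mRNA processing 3 of 42 were lower and 1 higher (4 and 0 after median centring), SRSF10 among the lower ones at 1127 in C against 2606 in A and 2478 in B.

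Of the chaperones and enzymes of the secretory pathway 1 of 22 was shifted, the endoplasmic reticulum chaperone HSPA5, at 1273 in C against 3418 in A and 3412 in B. Its other probe set was also lower but near the floor, at 4.15 on the log2 scale in C, against 5.34 in A and 5.32 in B. Sterol synthesis had 2 of 28 lower, IDI1 and SQLE. SQLE, squalene epoxidase, had 794 in C, against 1746 in A and 1613 in B. The group median was 0.06 and turned to -0.06 after median centring. The amino acid response had 3 of 34 higher (2 under both other scalings), among them SLC7A5, a carrier of large neutral amino acids, at 2993 in C against 1257 in A and 1302 in B, and CEBPB, a bZIP transcription factor, at 531 in C against 253 in A and 244 in B. PLAGL1 was the shifted gene among 25 imprinted ones, at 21.3 in C against 109 in A and 115 in B. Reference genes were not exempt. Of 14, EEF1A1 was higher on 1 of 5 probe sets and PPIA, cyclophilin A, was lower at 95.8 in C against 365 in A and 322 in B. The other PPIA probe sets were dimmer on the ORMES6 arrays and were not shifted.

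**Figure D5:**
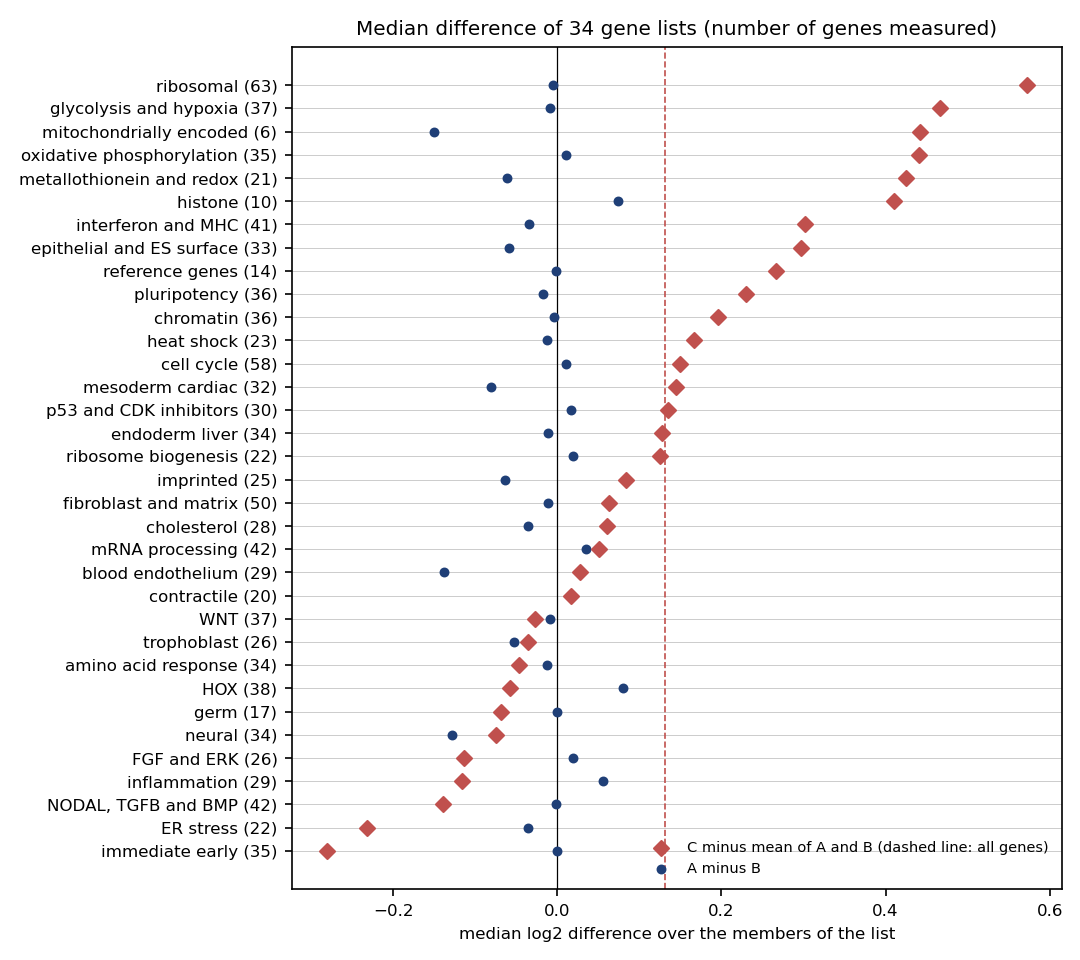
Median log2 difference over the measured members of each of 34 gene lists, for C minus the mean of A and B (red) and A minus B (blue), with the median of all genes at 0.13 as the dashed line. Ribosomal protein genes lie furthest right at 0.57 and immediate early genes furthest left at -0.28.

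C shared the strongest differences of A and B from the other lines in part. For 31 probe sets A and B both lay at least 4-fold above all 4 other lines. C lay above those lines too for 25 of them, but it was nearer to A and B than to the lines for 11, within 2-fold of the mean of A and B for 7, and shifted for 23. For another 31 A and B lay at least 4-fold below. C lay below for 23 of these, nearer to A and B for 16, within 2-fold of their mean for 11, and shifted for 20. Over all probe sets 5.55% were shifted. Both groups of 31 were picked by the values of A and B, which the rule for shifts also used. A high share of shifted members follows in part from that choice, and the counts are a description only. The genes that follow are examples where C lay with A and B, though for LCP1 not on every probe set. RPL7L1, a ribosomal protein paralogue, had a probe set at 5.03 in C, 4.73 in A and 4.26 in B, against 9.50 to 9.92 in the other lines. LZIC read 4.74 in C, 4.26 in A and 4.80 in B, against 7.66 to 8.45, and ZNF167 read 4.50 in C, 4.86 in A and 4.83 in B, against 8.50 to 9.73. The EBs read 4.19, 4.04 and 4.34 at the same 3 probe sets, although their label names no line. The other 3 RPL7L1 probe sets showed no such gap, with 11.42 in C, 11.18 in A and 11.09 in B against 11.19 to 11.39 on the one that stood for the gene. Mitochondrially encoded COX1 read 9.42 in C, 9.13 in A and 9.35 in B, against 12.76 to 14.27 in the other lines and 7.89 in the EBs. LCP1, an actin-bundling protein, read 12.23 in C, 12.41 in A and 12.45 in B on the probe set that stood for the gene, against 9.26 to 10.13. Its remaining probe sets were shifted lower in C. One read 8.51 in C, against 10.68 in A and 10.62 in B, and the other read 4.45 in C, against 5.60 in A and 5.90 in B. RPL7L1, LZIC, ZNF167, COX1 and LCP1 were named here after their values were seen.

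Comparisons with the other lines did not enter the rule and were tested with limma. C against the mean of the other 4 lines, as a lone array assumed to vary as they do, gave 1 probe set with a Benjamini-Hochberg adjusted p under the threshold of 0.05 (0.0019%) and 2954 with an unadjusted p under it (5.6%). It was the RPL7L1 probe set, with a log2 difference of -4.73 (SE 0.29) and an adjusted p of 0.0272 in limma. The mean of A and B, entered the same way, gave 6 (0.0114%) and 4450 (8.43%). RPL7L1 was again among them, with a difference of -5.26 and a limma adjusted p of 0.0126. AKT2 differed in A and B from the other lines by -3.52 with a limma adjusted p of 0.0275, whereas C differed from those lines by 0.16 with 0.933. An LCP1 probe set was higher in A and B by 4.12 with a limma adjusted p of 0.0363, and in C by 1.98 with 0.62. C14orf169 and MYO10 were lower in A and B, and an unnamed probe set was higher. That AKT2, LCP1, MYO10 and C14orf169 passed for A and B and not for C was not tested as a difference, because that difference chose the replicate.

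The replicates also supply the error of tests between lines. An F test over the 5 lines in limma, whose error comes only from the 3 ORMES6 replicates, called 55 probe sets (0.104%), with 5247 at an unadjusted p under 0.05 (9.94%). Without C, so that the error came from A and B alone, the same test called 8364 (15.9%), with 15866 unadjusted (30.1%). Without A it called 0, with 2433 unadjusted (4.61%), and without B it called 0, with 2382 unadjusted (4.51%). Over all probe sets the median SD was 0.30 among A, B and C, against 0.16 between A and B and 0.34 among the 4 other lines. The SD of the 3 replicates exceeded that of the 4 lines for 45.1% of probe sets. Because C was chosen for its distance from A and B, which is part of this error, the higher count without it follows from the choice and is a description only.

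The deposited data hold 1 further trace of the replicate. A column of signals named for ORMES6 without a letter, in the authors' deposited table with detection values, was equal to the signals of C within rounding for all 52763 probe sets, and to those of A for 202 and of B for 195. The detection p-values used here are those given for ORMES6 under the same name, also without a letter. Because the signals under that name are those of C, the detection values are taken to belong to C. With a value below 0.05 read as present, present were 47.4% of the probe sets higher in C and 58.6% of those lower in C, against 39.5% of all. With a value above 0.065 read as absent, the shares absent were 50.6%, 40.5% and 58.9%. Of the 367 probe sets that the authors' deposited table lists for ES cells, 13 were higher and 16 lower in C. Over all probe sets the shares were 2.95% and 2.6%. The median difference of the listed probe sets was -0.05, against 0.06 for all.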

How the data were processed

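Per the labels, intensity values of each probe set were produced by the authors with Affymetrix MAS5 on a linear scale. Their 2% trimmed mean was 200.0 on every array, so they were kept as scaled. The authors also deposited log2 signal log ratios of ES arrays over the EB array, detection p-values, and ratios (fold values) of a list of ES genes. A further 143 deposited columns were not used. Of 52865 probe sets, 99 controls and 3 with missing values were left out. Symbols come from the deposited annotation, with 457 updated from the macaque reference table, and 12392 probe sets were unnamed. Each gene was represented by its brightest probe set (mean of the 9 arrays).

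Tests used limma 3.58.1 in R 4.3.3 (lmFit, eBayes with trend) on log2(signal + 16), with Benjamini-Hochberg adjustment over all probe sets. They were also run on simulated data with known changes. For the F test the simulated error followed A and B without C, unlike the real test, so that run does not gauge the counts given here. The ORMES6 arrays are labelled as biological replicates, and the small number of arrays limits precision. Named are the 15 largest differences in each direction at a signal of 200 or more, up to 4 shifted members of each list (or, with none shifted, the 2 largest differences, not all of which are printed), and POU5F1, SOX2 and NANOG. The replicate, the gene lists and the rules were chosen with earlier results of these data known. 1 named gene is not reported here.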

Additional observations from a re-analysis of the deposited data

How the results depend on the processing

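The number of probe sets shifted in C was 2881 after quantile normalization and 2866 after median centring, against 2929. It depended on the offset, the fold and the filter. Offset 1 gave 8790 (4599 higher, 4191 lower), offset 64 gave 950 (410 and 540), a mean signal of 100 or more gave 1385 of 15987 (643 and 742), 1.5-fold gave 10384 (6030 and 4354) and 4-fold gave 118 (55 and 63). Median centring lowered the higher ones to 977 and the share that was higher to 34.1%, and quantile normalization lowered that share to 42.4%, against 53.1%. Against 1 replicate alone the rule gave 5602 to 5932 (3023 to 3661 higher, 2271 to 2579 lower), by construction more than against both. The median absolute difference was 0.59 with offset 1 and 0.18 with offset 64, against 0.36, and 0.38 to 0.39 with A or B left out. Averaging all probe sets of a gene gave 606 shifted genes (425 higher, 181 lower), against 1072.

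For the other lines against A and B, offset 1 gave 9076 for ORMES7, 10820 for ORMES9, 10596 for ORMES10 and 11499 for ORMES13, offset 64 gave 1204, 2199, 2006 and 2574, and the signal filter gave 1701, 2633, 2467 and 2897. Under each of these and both scalings C had fewer than any of the 4 lines.

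The F test between lines called 0 to 8364 with A, B or C left out, 156 after median centring and 107 with the signal filter, against 55. C against the 4 lines gave 3 with offset 1, 0 with offset 64 (3014 at an unadjusted limma p under 0.05) and 2 with the filter, against 1. A and B against the 4 lines gave 14 with offset 1 and 15 with the filter, against 6, and 4 to 7 with A or B left out. Of the named genes, NEFM turned to 0.019 and DKK3 to -0.017 when probe sets were averaged, and none of the 115 turned under another offset, scaling or replicate choice. Sizes were less steady. Among 901 values of named genes under other settings, 322 moved by at least that gene's SD of A and B and 577 did not. Of 34 lists, 11 to 17 had a median above that of all genes, against 15. The cause of these changes was not tested beyond their construction. No paired analysis was possible because the other lines have 1 array each and share no replicate letters with ORMES6.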
